A study of Mus musculus with 36 samples.

Results

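Small nucleolar RNAs (snoRNAs) were followed in mouse half-embryos that had reached the blastocyst stage in 1 of 3 culture media. The members were all rows of the deposited expression table with exactly 1 gene symbol that begins with Snord or Snora and a number. They came to 67 genes on 71 transcript clusters, out of 36231 genes that stand alone on a cluster, and each gene was represented by its cluster with the highest mean over the 36 arrays. Of the 67 genes, 49 belong to the box C/D class (Snord) and 18 to the box H/ACA class (Snora).

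SnoRNAs are short nucleolar guide RNAs. Box C/D snoRNAs work with the methyltransferase fibrillarin and direct methylation of the ribose of ribosomal RNA, while box H/ACA snoRNAs work with the pseudouridine synthase dyskerin and direct the conversion of uridine to pseudouridine. A few of them serve in the cleavage of the ribosomal RNA precursor and not, or not only, in its modification. In mammals most are cut out of the introns of host genes, many of which code for ribosomal proteins or other parts of the translation machinery, and in the blastocyst they belong to a nucleolus that the embryo has built up since activation of its own genome.

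All embryos came from the mating B6C3F1 x CD1 and spent the first cell cycle in KSOM(aa). Sister blastomeres were separated once the zygote had divided, and each was grown on alone for 72 h, about 96 h of culture in all. KSOM(aa) held 16 half-embryos (both sisters of embryos 1 to 8), GM501 held 10 and SAGE 1-step held 10, and the sisters of embryos 9 to 18 were divided between GM501 and SAGE 1-step. Each half-embryo was 1 array, and its values are log2 signals from 2.09 to 19.17 over all arrays. Every group consisted of bisected embryos, the medium was the one manipulation that differed between them, and each array represents total RNA of a whole blastocyst with all its lineages.

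The KSOM(aa) arrays and the others belong to different series of scan names, so that for every comparison with KSOM(aa) the medium and the array series cannot be told apart. Among the arrays of GM501 and SAGE 1-step, the 12 of embryos 9 to 14 stood apart: the Rn18s cluster, which measures 18S ribosomal RNA, read from 16.15 to 17.65 there and from 17.96 to 18.71 on the 24 other arrays. This division of embryos 9 to 18 is not in the labels. It was drawn from the 18S signal itself and from the first principal component, the main axis of variation, of these arrays. Of the marker lists, 6 of 7 measured trophectoderm genes and 8 of 8 epiblast genes were detected, 0 of 7 oocyte genes and 3 of 8 cumulus and granulosa genes. In each test medium 4 of the 7 trophectoderm genes were lower than in KSOM(aa) (median differences -0.54 and -0.65 on the log2 scale). Of all clusters 3.6% and 4.42% were lower, and of detected clusters 12.5% and 15.2% passed in either direction. Of the 8 epiblast genes 0 passed in GM501 and 1 in SAGE 1-step, Pou5f1, which was lower (-1.30, limma adjusted p = 0.00426). With embryos 15 to 18 alone, 0 genes of these 2 lists passed in either medium, and Pou5f1 differed by -0.60 in SAGE 1-step (adjusted p = 0.344). The part of these markers in the snoRNA values was not tested. A lower signal of a transcript in a whole half-embryo can reflect fewer cells of one kind or less RNA per cell, which cannot be told apart here. The probes of a snoRNA cluster were also not shown to separate the processed snoRNA from the host intron around it.

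Olfactory and vomeronasal receptor genes served as a measure of background, and a gene was counted as detected when it exceeded their 90th percentile on 50% or more of the arrays in some medium. By this measure 60 of the 67 snoRNA genes were detected, 44 of 49 box C/D and 16 of 18 box H/ACA genes. The 7 others were Snord37, Snord88c, Snord107, Snord110, Snord111, Snora20 and Snora35. In the files 64 members have coordinates on mm10, on 18 chromosomes, with a median length of 90.5 bases. Snord64 spans 3937 bases and Snord53 spans 781, which is more than a snoRNA. Snord116l1 and Snord116l2 had equal values on all 36 arrays and are thus 1 measurement, although both genes are counted among the 67.

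The signals of snoRNA genes varied more between half-embryos of the same medium than those of most genes did. Over the 16 half-embryos in KSOM(aa) the median standard deviation was 1.00 on the log2 scale for the 60 detected members and 0.35 for all 22925 detected clusters. An SD of at least 1 was found in 30 of the 60 members and in 4.17% of all detected clusters. Box C/D genes had a median SD of 1.05 and box H/ACA genes one of 0.82.

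The range within box C/D was wide. Snord23 had the lowest SD, 0.28, and its 16 signals in KSOM(aa) ran from 6.48 to 7.48. Snord61 had the highest, 2.82, with signals from 3.23 to 10.95. Snord71 (SD 2.45) and Snord45b (SD 2.29) followed, so that in each of these genes some half-embryos read near the background of the array and others far above it.

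Sisters resembled each other only a little more than unrelated half-embryos did. Over the 8 sister pairs in KSOM(aa) the median absolute difference of a detected member was 0.72, against 0.87 over the 112 pairs of half-embryos from different embryos. For all detected clusters the corresponding values were 0.29 and 0.33. These are descriptions with no test.

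**Figure D1:**
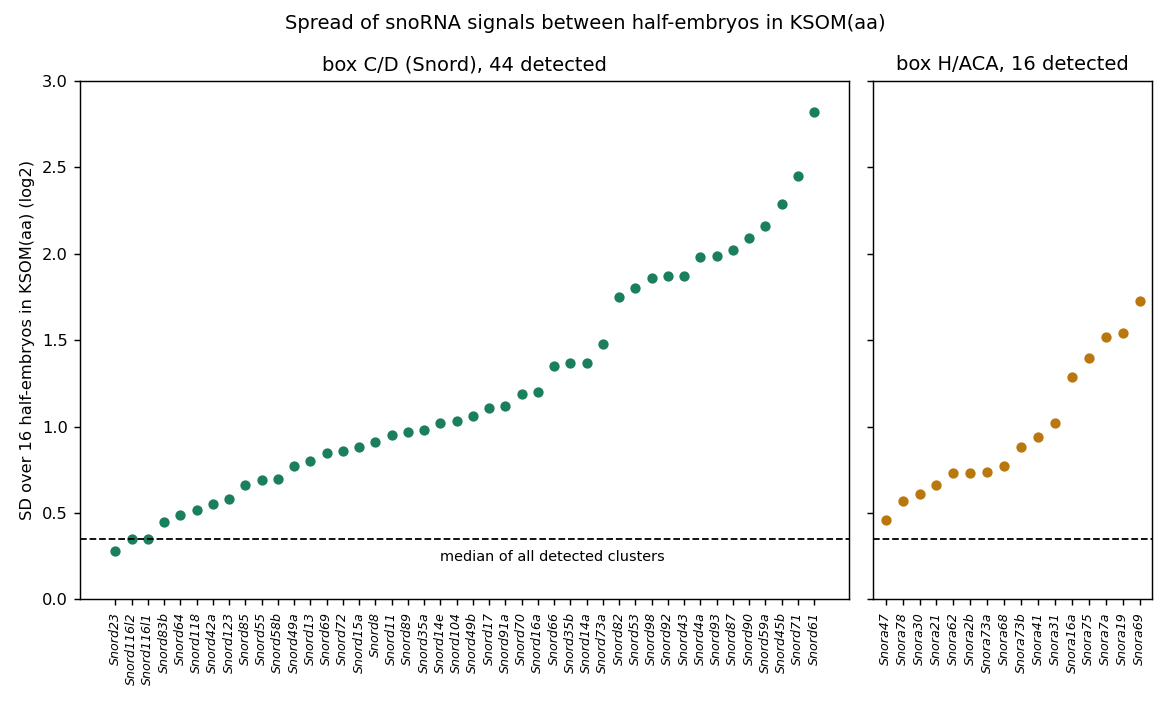
Each point is the standard deviation (log2 units, vertical axis) of 1 detected snoRNA gene over the 16 half-embryos in KSOM(aa), with box C/D genes on the left and box H/ACA genes on the right, and the dashed line is the median over all detected clusters, 0.35. Nearly all points lie above the line, from 0.28 for Snord23 to 2.82 for Snord61.

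The first comparison asked which snoRNA genes differed between half-embryos in GM501 and in KSOM(aa). With limma, adjusted over 40160 clusters, 8 of the 67 members passed: 3 were higher in GM501 and 5 were lower, beside 4.06% and 3.6% of all clusters in these directions (7.66% in either). Of detected members 13.3% passed, beside 12.5% of all detected clusters. The 5 lower genes were all box C/D: Snord42a, Snord49a, Snord70, Snord73a and Snord89. The 3 higher genes were the box C/D gene Snord104 and the box H/ACA genes Snora73a and Snora73b. The median difference was 0.05 for box C/D and 0.13 for box H/ACA genes, beside 0.09 for all clusters.

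SAGE 1-step was compared with the same KSOM(aa) arrays. There 6 of the 67 members passed, 3 higher and 3 lower, beside 5.13% and 4.42% of all clusters (9.55% in either direction). Of detected members 10.0% passed, beside 15.2% of all detected clusters. The lower genes were Snord42a, Snord49a and Snord89, and the higher ones were Snora73a, Snora73b and Snora31. Medians were -0.05 for box C/D, 0.09 for box H/ACA and 0.10 for all clusters. Across both comparisons 9 genes passed at least once and 5 passed in both, but the comparisons share their control arrays. The corresponding shares of all clusters were not taken, so these counts cannot be set beside a background. The 5 members that were lower in at least 1 medium were box C/D genes. With so small a share of all clusters lower, a count of 0 among 18 box H/ACA genes does not set that class apart, and in the fit restricted to embryos 9 to 14 the H/ACA genes Snora75 in GM501 (-1.26, limma adjusted p = 0.0461) and Snora2b in SAGE 1-step (-0.84, adjusted p = 0.0227) were lower.

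The half-embryos in KSOM(aa) were sisters counted as separate samples. When the sisters of these 8 embryos were averaged before the fit, the calls that held were Snord70 in GM501 and Snord42a and Snord49a in SAGE 1-step, and the 11 other calls described next did not pass (limma adjusted p from 0.0538 to 0.166).

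Snord42a (chr11:78181299-78181363, minus strand), which lies within Rpl23a and whose human counterpart guides methylation of 18S ribosomal RNA, was among the brightest members. Its signal in KSOM(aa) ran from 13.38 through a median of 14.70 to 15.45. In GM501 it ran from 12.13 through 13.38 to 14.17, and in SAGE 1-step from 11.84 through 12.91 to 14.46. All 10 half-embryos of each test medium lay below the KSOM(aa) median, although the upper ones overlapped the KSOM(aa) range. The fall was 1.35 (log2 difference -1.35, SE 0.29, limma adjusted p = 0.00436) in GM501 and 1.43 (log2 difference -1.43, SE 0.29, adjusted p = 0.00215) in SAGE 1-step.

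Snord49a (chr11:62603450-62603521, plus strand) is one of 2 members within the same host RNA, 2410006H16Rik. Signals were 6.65, 8.34 and 9.44 (lowest, median and highest) in KSOM(aa), 4.68, 7.28 and 8.64 in GM501, and 5.04, 6.44 and 8.48 in SAGE 1-step. In each test medium 9 of 10 half-embryos were under the KSOM(aa) median, and in SAGE 1-step 7 were under the lowest KSOM(aa) value. The difference was -1.34 (SE 0.39, limma adjusted p = 0.0311) in GM501 and -1.86 (SE 0.39, adjusted p = 0.00289) in SAGE 1-step.

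Snord89 (chr1:39548745-39548854, minus strand), within Rnf149, ran from 10.05 through 11.50 to 13.11 in KSOM(aa). Its values were 9.41, 10.22 and 11.44 in GM501 and 9.35, 10.14 and 11.45 in SAGE 1-step, so that every half-embryo of both media fell below the KSOM(aa) median and the ranges overlapped. The difference was -1.03 (SE 0.33, limma adjusted p = 0.0470) and -1.11 (SE 0.33, adjusted p = 0.0273).

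Snord70 (chr1:59691934-59692020, plus strand) lies within Nop58, the gene of a core protein of box C/D particles. It showed the largest difference of any member in the comparison of GM501 with KSOM(aa). Signals ran from 8.27 through 10.77 to 12.66 in KSOM(aa), and from 5.04 through 7.66 to 10.18 in GM501, where 6 of 10 half-embryos were under the lowest KSOM(aa) value. In SAGE 1-step they ran from 6.50 through 9.59 to 10.72. The difference was -2.98 (SE 0.56, limma adjusted p = 0.00137) in GM501 and -1.46 (SE 0.56, adjusted p = 0.0896) in SAGE 1-step, the second of which did not pass.

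Snord73a (chr3:86138791-86138858, minus strand), within the ribosomal protein gene Rps3a1, fell in GM501 and did not pass in SAGE 1-step. Its signals were 3.68, 7.03 and 8.55 in KSOM(aa), 3.28, 4.04 and 8.16 in GM501, and 3.90, 6.18 and 8.90 in SAGE 1-step. Signals exceeded the detection level of their array in 3 of 10 half-embryos in GM501, in 8 of 10 in SAGE 1-step and in 14 of 16 in KSOM(aa). The difference was -2.06 (SE 0.58, limma adjusted p = 0.0253) in GM501 and -0.49 (SE 0.58, adjusted p = 0.596) in SAGE 1-step. With the embryo as a random block the GM501 value did not pass (adjusted p = 0.0933).

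Snord104 (chr11:106500991-106501063, plus strand) was the 1 box C/D gene that rose in GM501. It read 8.74, 10.23 and 12.27 in KSOM(aa), 9.50, 12.60 and 13.40 in GM501, and 9.62, 11.80 and 13.37 in SAGE 1-step. In GM501 the 10 values fell into 6 above the highest KSOM(aa) value and 4 within its range, and these 4 were those of embryos 15 to 18. The difference was 1.73 (SE 0.52, limma adjusted p = 0.0349) in GM501, and 1.54 (SE 0.52, adjusted p = 0.0538) in SAGE 1-step.

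Snora73a and Snora73b, also known as U17, are box H/ACA RNAs that serve in cleavage of the ribosomal RNA precursor toward 18S ribosomal RNA. The clusters used have no coordinates in the files, and as near copies of each other the genes may share probe signal. Snora73a ran from 8.98 through 10.80 to 11.78 in KSOM(aa), from 10.34 through 11.94 to 13.14 in GM501, and from 10.65 through 11.86 to 13.68 in SAGE 1-step. In each test medium 5 of 10 half-embryos lay above the highest KSOM(aa) value. It rose by 1.07 (SE 0.33, limma adjusted p = 0.0384) in GM501 and by 1.34 (SE 0.33, adjusted p = 0.00818) in SAGE 1-step.

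Snora73b read 9.47, 11.72 and 12.75 in KSOM(aa), 10.99, 13.02 and 13.84 in GM501, and 11.49, 12.76 and 14.55 in SAGE 1-step. It was above the KSOM(aa) median in 8 of 10 half-embryos in GM501 and in 9 of 10 in SAGE 1-step. The rise was 1.12 (SE 0.35, limma adjusted p = 0.0436) and 1.41 (SE 0.35, adjusted p = 0.00966). A further cluster of Snora73b, placed on chromosome 4, gave 1.05 (adjusted p = 0.0507) and 1.33 (adjusted p = 0.0112). With the embryo as a random block neither gene passed in GM501 (adjusted p = 0.0790 for Snora73a and 0.0851 for Snora73b), while both passed in SAGE 1-step.

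Snora31 (chr14:75847905-75848034, plus strand) lies within Tpt1, which codes for a translationally controlled protein. Signals were 6.93, 10.02 and 11.53 in KSOM(aa), 9.32, 10.88 and 12.45 in GM501, and 9.04, 11.44 and 13.08 in SAGE 1-step. Above the highest KSOM(aa) value were 4 half-embryos in GM501 and 5 in SAGE 1-step. The difference was 1.36 (SE 0.44, limma adjusted p = 0.0443) in SAGE 1-step and 1.30 (SE 0.44, adjusted p = 0.0604) in GM501. With the embryo as a random block the SAGE 1-step value did not pass (adjusted p = 0.0821).

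**Figure D2:**
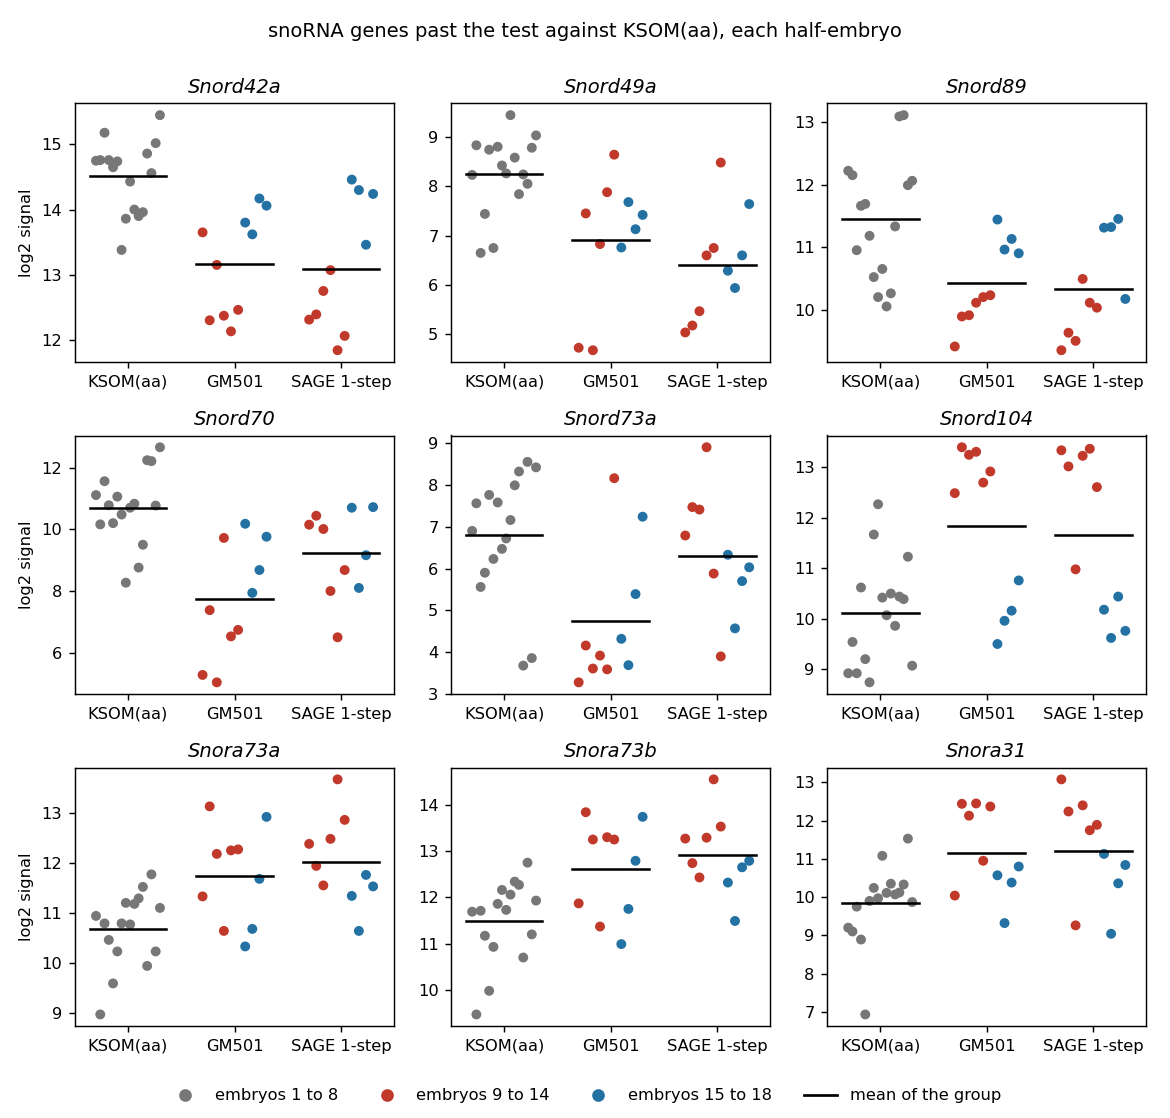
Log2 signal (vertical axis, scaled to each gene) of the 9 snoRNA genes that passed in at least 1 comparison with KSOM(aa), for each of the 36 half-embryos by medium, with the black line at the group mean and colours for embryos 1 to 8, 9 to 14 and 15 to 18. In Snord104 the 4 GM501 values of embryos 15 to 18 lie within the KSOM(aa) range while the 6 of embryos 9 to 14 lie above it.

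The calls depended on which embryos were in the test media. When the fit kept embryos 9 to 14 of the test media, 17 members passed in GM501, 7 higher and 10 lower, where 42.6% and 9.4% of all clusters passed. In SAGE 1-step 17 members passed as well, 11 higher and 6 lower, beside 37.9% and 8.6%. The 17 members were 25.4% of the 67 in each medium, below the 52.0% and 46.5% of all clusters. Within these embryos 11 members passed in both media, and the share of all clusters that did so was not taken. With embryos 15 to 18 in place of them, 0 members passed in GM501 and 2 in SAGE 1-step, Snora30 higher and Snord49a lower, beside 0.69% and 0.732% of all clusters (0.314% higher and 0.376% lower in GM501, and 0.251% and 0.481% in SAGE 1-step). These fits compare 6 and 4 half-embryos per medium with the 16 in KSOM(aa), and the difference between them was not tested.

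For the genes that passed in all arrays, the size of the difference in embryos 15 to 18 differed by gene. Snord49a differed by -1.64 in SAGE 1-step (limma adjusted p = 0.0446) and by -1.01 in GM501 (adjusted p = 0.184). Snord70 differed by -1.57 in GM501 and Snora73b by 0.82 in both media, none of which passed (adjusted p from 0.196 to 0.438). The falls of Snord42a and Snord89 were smaller than over all arrays, at -0.60 and -0.40 for Snord42a in GM501 and SAGE 1-step and at -0.34 and -0.38 for Snord89, and Snora31 differed by 0.50 in SAGE 1-step, again without passing. Snord104 was -0.02 in GM501 and -0.12 in SAGE 1-step, where embryos 9 to 14 had given 2.90 and 2.64.

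GM501 and SAGE 1-step, which held the sisters of embryos 9 to 18, were compared in the same fit, with medium as the factor and sisters unpaired. No snoRNA gene passed (0 of 67, beside 0.0% of all clusters with limma), and at an unadjusted p under 0.05 there were 3 members, 4.48%, beside 1.52% of all clusters. The methods' t-test with the same adjustment also called 0 members. Fitting the embryo as a fixed block, which is the comparison within sister pairs, left the count at 0.

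The 3 box C/D genes with the smallest unadjusted p in the unpaired fit were Snord83b, Snord70 and Snord73a. Snord83b, within Rpl3, read 5.03, 5.68 and 6.51 (lowest, median and highest) in GM501 and 4.68, 5.12 and 5.96 in SAGE 1-step, a difference of 0.55 (SE 0.21) that was above 0 in 7 of 10 pairs. Snord70 and Snord73a differed by -1.52 (SE 0.62) and -1.56 (SE 0.65), each with the GM501 sister higher in 2 of 10 pairs. The adjusted p of all 3 was 1.0 with limma. The 3 box H/ACA genes were Snora2b (0.45, SE 0.37), Snora30 (0.41, SE 0.36) and Snora7a (-0.65, SE 0.56), also at an adjusted p of 1.0.

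Whether the difference between the 2 media itself differed between the embryo sets was tested on the sister differences of the 10 embryos. Again 0 of 67 members passed (0.0% of all clusters), and the smallest adjusted p of a member was 0.694 with limma. At an unadjusted p under 0.05 there were 7 members, 10.4%, beside 7.0% of all clusters.

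The snoRNA genes were then described in embryos 9 to 14 and 15 to 18, as the mean of the 2 sisters of each embryo. Since the sets were separated by the signals of these arrays, no test is given. The ranges of the 6 and the 4 embryos did not overlap for 11 of 67 members, 6 higher and 5 lower in embryos 9 to 14, beside 22.1% and 5.84% of all clusters (28% in either direction). With Snord116l1 and Snord116l2 counted once there were 10 of 66, 5 in each direction. The split and the order of the shares depended on the scaling of the arrays. In the deposited values 16.4% of members did not overlap, below the 28% of all clusters. With each array centred on its median there were 2 higher and 12 lower members, 20.9% beside 15.6% of all clusters. With quantile normalization there were 3 higher and 9 lower, 17.9% beside 18.1%, and with arrays scaled to Actb, Gapdh and Hprt 12 higher and 3 lower, 22.4% beside 41.8%.

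The differences of the members were of larger size than those of all clusters in the deposited values: the median absolute difference was 0.81 for the 60 detected members and 0.47 for all detected clusters, and 36.7% of detected members differed by at least 1, beside 15.6%. The order was the same with centring and with quantile normalization, but with arrays scaled to Actb, Gapdh and Hprt the medians were 0.83 and 0.89. Detected members also had the larger spread in KSOM(aa), a median SD of 1.00 beside 0.35, and its part in these sizes was not tested. Between GM501 and SAGE 1-step, where 0 members passed, the median absolute differences were 0.31 and 0.09.

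Box C/D genes went both ways, with 21 of 49 above 0, and had a median difference of -0.22, where the median of all clusters was 0.30. Of the 18 box H/ACA genes 13 were above 0 and the median was 0.32. The shares above 0 were 42.9% of box C/D genes, 72.2% of box H/ACA genes and 78.4% of all clusters. With each array centred on its median, 11 box C/D and 8 box H/ACA genes were above 0, beside 17318 of all 40160 clusters. The medians were then -0.57 and -0.03 beside -0.04 for all clusters. In the deposited values the 5 genes that were lower without overlap were box C/D and the 6 higher ones were 5 box C/D genes and Snora62, but after centring 2 box H/ACA genes were lower without overlap and 0 were higher. Snord104, Snord87, Snord13, Snord45b and Snord53 kept their direction without overlap under all 3 other scalings. On the GM501 arrays alone Snord87, Snord45b and Snord53 overlapped, and on the SAGE 1-step arrays alone Snord53 did.

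Snord104, whose human counterpart guides methylation of 28S ribosomal RNA, had the largest positive difference, 2.84. Its embryo means ran from 12.12 through 12.97 to 13.27 in embryos 9 to 14, and were 9.84, 9.79, 10.30 and 10.26 in embryos 15 to 18. The latter lay about the KSOM(aa) mean of 10.12 ± 1.03 (SD, n = 16), and the former lay above all but the highest KSOM(aa) value.

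Snord87, within the host RNA Snhg6 (chr1:9942463-9942549, minus strand), followed with a difference of 2.51. Its embryo means were 12.36, 12.73 and 13.33 (lowest, median and highest) in embryos 9 to 14 and 11.18, 8.88, 11.12 and 9.96 in embryos 15 to 18. In KSOM(aa) it read 9.76 ± 2.02, with 1 half-embryo as low as 4.22. Snord87 missed the threshold in both comparisons with KSOM(aa) over all arrays, at differences of 2.05 and 2.01 (limma adjusted p = 0.0597 and 0.0586).

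Snord72, within the ribosomal protein gene Rpl37 (chr15:5118404-5118484, plus strand), differed by 2.15. Embryos 9 to 14 ran from 12.41 through 13.34 to 14.24 and embryos 15 to 18 were at 11.62, 9.61, 12.08 and 11.33, next to 11.68 ± 0.86 in KSOM(aa). Of the 2 sisters of embryo 16, the half-embryo in SAGE 1-step read 8.20 and the one in GM501 read 11.03.

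Snord45b, within Rabggtb (chr3:153910563-153910633, minus strand), read 4.68 lower on the log2 scale in embryos 9 to 14, where its signal exceeded the detection level on 3 of 12 arrays, so that the size of this difference is not measured exactly. With each value raised to the detection level of its array where it was lower, the difference was -3.51. Its means were 3.44, 3.84 and 7.74 in embryos 9 to 14 and 9.30, 9.46, 9.73 and 8.32 in embryos 15 to 18. In KSOM(aa) it covered both levels, from 4.14 to 11.40, and the levels of both embryo sets lay within or near that range. On the GM501 arrays alone the sets overlapped.

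Snord13, or U13, which serves in the making of 18S ribosomal RNA and has a gene of its own, differed by -1.63. Its means in embryos 9 to 14 ran from 10.42 through 10.73 to 11.66, and in embryos 15 to 18 they were 12.69, 12.45, 12.52 and 12.50. KSOM(aa), at 11.50 ± 0.80, lay between. A further cluster of Snord13 gave a difference of -1.46.

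Snord42a differed by -1.47 between the sets, with means from 11.98 to 12.98 in embryos 9 to 14 and 14.13, 13.96, 13.82 and 14.15 in embryos 15 to 18. Snord89 differed by -1.18 and Snord53 by -1.48, the latter above the detection level on 5 of 12 arrays of embryos 9 to 14. The remaining genes without overlap had small differences, 0.49 for Snord116l1 and Snord116l2 and 0.54 for Snora62, and they overlapped with centring and with quantile normalization. Snord116l1 exceeded the detection level on 2 of 12 and 4 of 8 arrays of the sets. Of these, Snord116 belongs to the imprinted cluster of the Prader-Willi syndrome region and is known chiefly from brain.

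**Figure D3:**
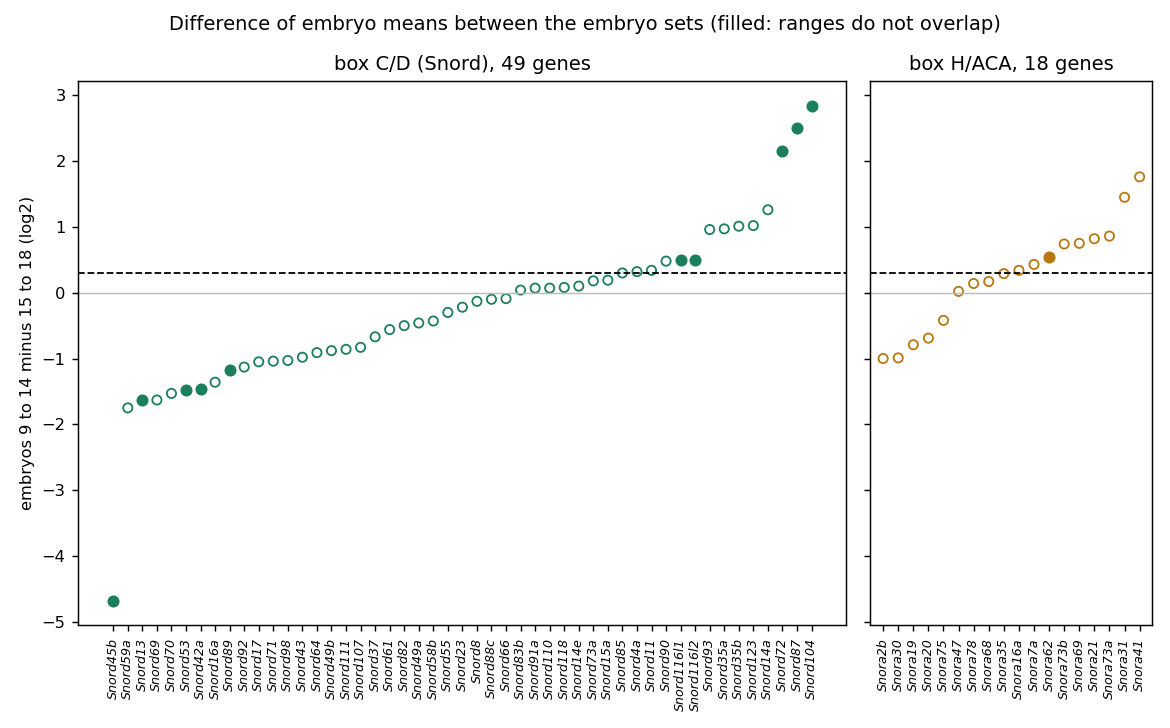
Difference of embryo means between embryos 9 to 14 and 15 to 18 (log2, vertical axis) for each of 49 box C/D and 18 box H/ACA genes, sorted by value, with filled points where the ranges of the embryos do not overlap and the dashed line at the median of all clusters, 0.30, all in the deposited values. Box C/D genes reach from -4.68 (Snord45b) to 2.84 (Snord104).

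The classes were set beside the 18S signal of each array as the median, over detected genes, of the signal minus that gene's own mean in KSOM(aa). For box C/D this shift ran from -0.47 to 0.24 on the 12 arrays of embryos 9 to 14 and from -0.45 to 0.39 on the 24 others, so the ranges coincided. For box H/ACA it ran from 0.01 to 0.89 on the 12 arrays, none below 0, and from -0.72 to 0.56 on the 24 others. With each array centred on its median the box H/ACA shift was below 0 on 4 of the 12 arrays and the box C/D shift on 11 of them. The Rn18s signal was 17.09 ± 0.42 (SD, n = 12) on the former and 18.51 ± 0.16 (SD, n = 24) on the latter. The split itself was drawn from this signal.

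The size of the shift without its sign was larger on the arrays with the lower 18S signal. As the sets were drawn from the signals of these arrays, this size is not independent of the split. It was not taken over all clusters. The median absolute shift of box C/D genes was 1.08 ± 0.25 (SD, n = 12) in embryos 9 to 14, 0.73 ± 0.10 (n = 8) in embryos 15 to 18 and 0.67 ± 0.16 (n = 16) in KSOM(aa). For box H/ACA genes it was 0.92 ± 0.20, 0.68 ± 0.16 and 0.54 ± 0.16 in the same order. The KSOM(aa) arrays also supplied the mean from which the shift is counted, which makes their own values smaller. In the same arrays Gapdh, an enzyme of glycolysis, read 14.85 ± 0.36 in embryos 9 to 14 and 15.74 ± 0.12 on the others. Actb read 16.06 ± 0.36 and 17.26 ± 0.20, while Hprt read 15.05 ± 0.43 and 15.16 ± 0.48. The median of all clusters of an array went the other way, 5.00 ± 0.14 and 4.69 ± 0.12. The part of these array-wide differences in the snoRNA values was not tested.

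**Figure D4:**
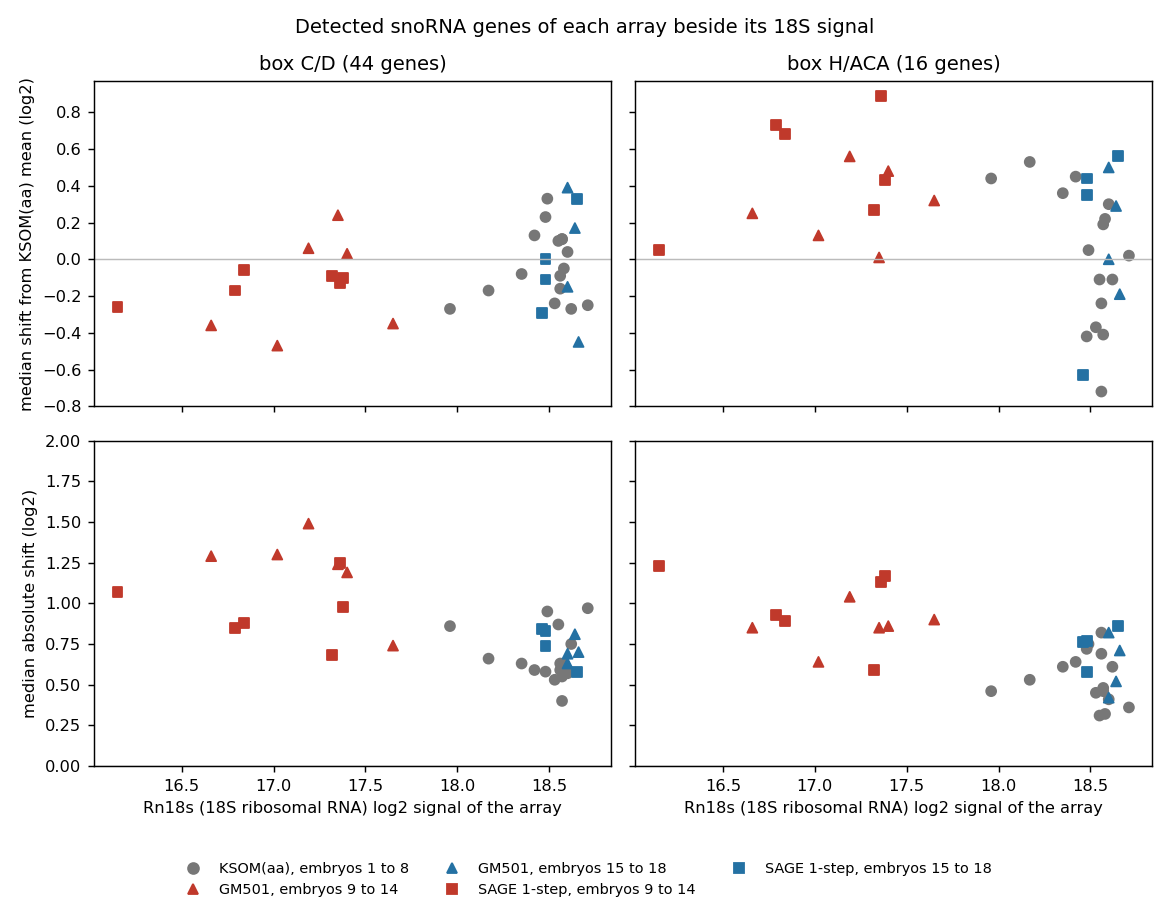
Each point is 1 array, with its Rn18s log2 signal on the horizontal axis and, on the vertical axis, the median shift of detected box C/D (left) or box H/ACA (right) genes from their KSOM(aa) means (top) or the median of the same shifts without sign (bottom). The 12 arrays of embryos 9 to 14 lie at Rn18s signals up to 17.65 and all other arrays from 17.96.

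Hosts were taken from the files as the named transcript cluster on the same strand that contains the member. Such a cluster was found for 56 members, in 50 hosts, and some of these clusters carry further snoRNA symbols, so their probes may include snoRNA sequence. The hosts varied far less than the snoRNAs inside them: the median SD in KSOM(aa) was 0.26 for hosts and 1.16 for the 56 members. Between the embryo sets the sign of the difference was the same in member and host for 23 of 40 box C/D genes and for 15 of 16 box H/ACA genes, as a count over genes that share arrays. With each array centred on its median the counts were 31 of 40 and 10 of 16.

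For members that passed, the containing cluster gave other values. The Rpl23a cluster that contains Snord42a differed by 0.32 (SE 0.11, limma adjusted p = 0.0754) in GM501 and rose by 0.40 (SE 0.11, adjusted p = 0.0213) in SAGE 1-step, while Snord42a fell in both. The cluster of 2410006H16Rik, which also carries Snord65, rose by 1.04 in both media (SE 0.26, adjusted p = 0.0123 and 0.0101), while Snord49a inside it fell. Nop58 differed by -0.44 and -0.46 (SE 0.17, adjusted p = 0.108 and 0.0824), in the direction of Snord70 but by less, and Rps3a1 by 0.09 (SE 0.05, adjusted p = 0.239) beside the fall of Snord73a in GM501. Tpt1 differed by 0.10 (SE 0.08, adjusted p = 0.433) in SAGE 1-step, where Snora31 rose.

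Members of the same host also differed from each other, in examples chosen after their values were seen. Snord4a lies in the same cluster as Snord42a and differed by 1.53 (SE 0.65, limma adjusted p = 0.146) in GM501 and 1.36 (SE 0.65, adjusted p = 0.178) in SAGE 1-step. Snord11, the other member within Nop58, differed by 0.86 (SE 0.45, adjusted p = 0.239) in GM501, opposite in sign to Snord70. Snord49b, next to Snord49a in their host, differed by -0.48 and 0.05 (SE 0.44, adjusted p = 0.509 and 0.953). The differences between the members of a pair were not tested.

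**Figure D5:**
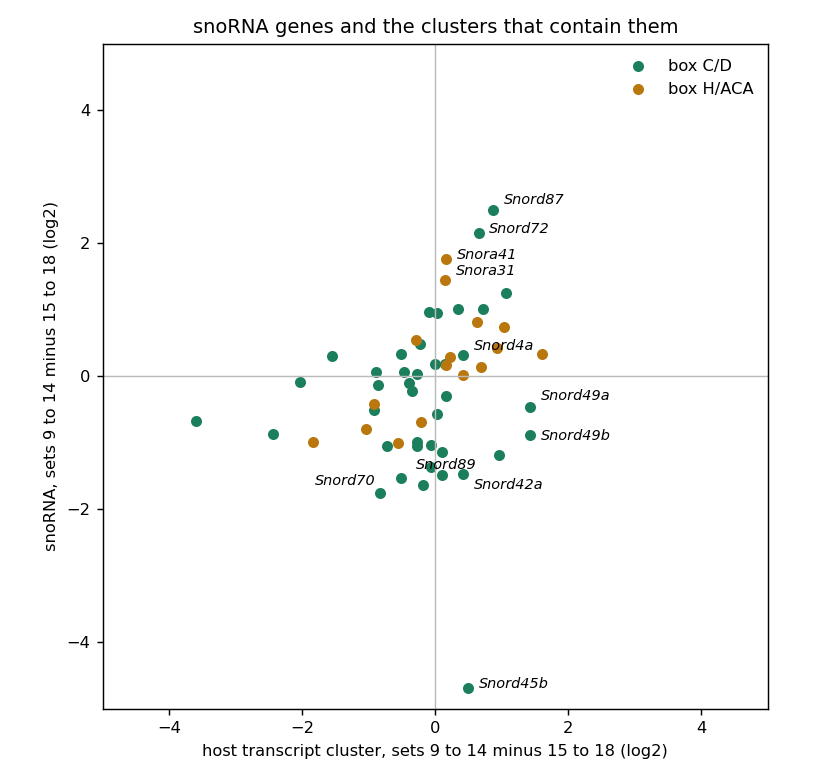
Difference between embryos 9 to 14 and 15 to 18 (log2) of 56 snoRNA genes (vertical axis) against that of the transcript cluster that contains them (horizontal axis), with box C/D and box H/ACA genes in separate colours. Snord49a, Snord49b, Snord89, Snord42a and Snord45b lie below 0 while their hosts lie above it in the deposited values.

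Among the members known for cleavage of the ribosomal RNA precursor, only Snora73a and Snora73b passed. Snord14e, one of the U14 genes, was the brightest member, with a KSOM(aa) median of 14.66, medians of 15.21 and 15.36 in GM501 and SAGE 1-step, and overlapping ranges. Its differences were 0.26 and 0.44 (SE 0.33, limma adjusted p = 0.644 and 0.391). Snord14a, also U14 and within Rps13, differed by 0.15 and 0.94 (SE 0.52, adjusted p = 0.876 and 0.240). Snord13 differed by -0.01 and 0.14 (SE 0.37, adjusted p = 0.985 and 0.821).

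Snord118, or U8, which serves in maturation of the large subunit RNAs, was close to the detection level, with a KSOM(aa) median of 5.22, a GM501 median of 5.13 and a SAGE 1-step median of 5.07. It differed by -0.23 (SE 0.22, limma adjusted p = 0.503) in SAGE 1-step. Snord35a, within the ribosomal protein gene cluster of Rpl13a, had medians of 8.97, 9.00 and 8.66 and differences of 0.05 and -0.18 (SE 0.52, adjusted p = 0.958 and 0.842).

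The protein partners were read from lists of genes, beside the 4.06% and 3.6% of all clusters that were higher and lower in GM501 and the 5.13% and 4.42% in SAGE 1-step. Of detected clusters 12.5% and 15.2% passed in either direction in GM501 and SAGE 1-step. Over the 6 lists of proteins, 75 genes in all, 5 rose and 13 fell in GM501 and 4 rose and 17 fell in SAGE 1-step, but with embryos 15 to 18 alone 0 passed in GM501 and 1 in SAGE 1-step, Fbl.

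Of 3 measured core proteins of box C/D particles, Fbl (fibrillarin) fell by 0.55 (SE 0.16, limma adjusted p = 0.0288) in GM501 and by 0.62 (SE 0.16, adjusted p = 0.0125) in SAGE 1-step. In embryos 15 to 18 it differed by -0.02 in GM501 and by -0.63 (adjusted p = 0.0265) in SAGE 1-step. Nhp2l1, which binds the kink of box C/D RNAs, rose by 0.65 (SE 0.16, adjusted p = 0.0107) and 0.59 (SE 0.16, adjusted p = 0.0169), where embryos 15 to 18 gave 0.32 and 0.01. Of 4 core proteins of box H/ACA particles 1 passed in each medium, Nop10, with a rise of 0.95 and 0.91 (SE 0.26, adjusted p = 0.0219 and 0.0251), and embryos 15 to 18 gave 0.11 and -0.09 for it. Dkc1 (dyskerin) differed by 0.13 and 0.03 (SE 0.21, adjusted p = 0.699 and 0.930).

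Of the 27 measured proteins of the processome that assembles with U3 snoRNA, 1 rose and 4 fell in GM501 and 1 rose and 5 fell in SAGE 1-step, with median differences of -0.38 and -0.40. Rrp9, a U3 binding protein, fell by 0.98 and 1.02 (SE 0.22, limma adjusted p = 0.00579 and 0.00354), and differed by -0.19 and -0.75 in embryos 15 to 18, without passing. Of 11 further nucleolar proteins 0 rose and 5 fell in each medium (medians -0.16 and -0.36), among them Nop2, a methyltransferase of ribosomal RNA, which fell by 1.70 and 1.94 (SE 0.43, adjusted p = 0.0129 and 0.00445) and differed by -0.12 and -1.19 in embryos 15 to 18 (adjusted p = 0.885 and 0.208). Of 14 subunits and factors of RNA polymerase I, 1 rose and 2 fell in GM501 and 1 rose and 4 fell in SAGE 1-step. Ubtf, which activates transcription of ribosomal DNA, fell by 0.97 and 1.16 (SE 0.16, adjusted p = 0.000462 and 6.56e-05), and embryos 15 to 18 gave -0.56 and -0.73 (adjusted p = 0.139 and 0.0571).

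Of 16 proteins of snoRNP assembly and transport, 1 rose and 1 fell in GM501 and 0 rose and 2 fell in SAGE 1-step, with Ruvbl2, a helicase of the assembly complex, lower in both (-0.55 and -0.79, SE 0.16, limma adjusted p = 0.0339 and 0.00238). Of 8 snoRNA host RNAs, 2 rose and 1 fell in GM501, and 2 rose and 0 fell in SAGE 1-step. Snhg14, the host of Snord116 in the RefSeq annotation, rose by 0.62 and 0.60 (SE 0.14, adjusted p = 0.00650 and 0.00696). Embryos 15 to 18 gave 0.26 and 0.29 for it (adjusted p = 0.379 and 0.431), and its KSOM(aa) mean of 5.33 was close to the detection level there, 4.73 to 5.17. With embryos 15 to 18 alone, 1 host RNA passed, Snhg9, which was lower in GM501 (-1.04, adjusted p = 0.0352). Between the embryo sets 7 of these 8 host RNAs were higher in embryos 9 to 14 without overlap, beside 22.1% of all clusters, and 2 of 8 once arrays were centred by their medians, beside 5.08%.

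Other structured RNAs, among them ribosomal RNAs, Y RNAs, the RNAs of the signal recognition particle and RNAs of Cajal bodies, stand beside the snoRNAs. Of 26 measured, 1 rose and 2 fell in GM501, and 1 rose and 8 fell in SAGE 1-step. Rn7s1 and Rn7s2 had equal values, and counted once they leave 7 that fell. With embryos 15 to 18 alone 0 passed in either medium. Rny3, a Y RNA, fell by 1.90 and 1.78 (SE 0.44, limma adjusted p = 0.00641 and 0.00852). Between the embryo sets 13 of the 26 were lower in embryos 9 to 14 without overlap and 2 were higher. With Rn7s1 and Rn7s2 counted once, 12 of 25 were lower. Of all clusters 5.84% and 22.1% were lower and higher. The 13 include Rn18s, from whose signal the sets were drawn, so its place among them was fixed in advance. With each array centred on its median 14 were lower and 0 higher, beside 10.6% and 5.08% of all clusters. With arrays scaled to Actb, Gapdh and Hprt 6 were lower and 3 higher, beside 1.62% and 40.2%. In the deposited values 5 of the 67 snoRNA genes were lower and 6 higher, and the difference between these shares was not tested.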

How the data were processed

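The authors amplified RNA of single half-embryo blastocysts with the WT Pico kit and deposited log2 signals of the MTA array, made with the Affymetrix Expression Console (Signal Space Transformation with robust multiarray averaging) and annotated on mm10. Which arrays were normalized as one batch is not given in the sources used here. The deposited column of half-embryo 1a was entered as a score, since 1 cell holds a value too high for a log2 signal, and that cluster was left out. The precision of the values is limited by the number of arrays, 16, 10 and 10.

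The fits across media used limma 3.58.1 under R 4.3.3 (trended prior variance, 2-sided, Benjamini-Hochberg over 40160 clusters with a symbol, threshold 0.05), on all 36 half-embryos with medium as the factor. Sisters counted as separate samples, so p-values measure the spread between half-embryos. Labels give the same embryo number to sisters, and with the embryo as a random block their consensus correlation was 0.374. The fit was tested on simulated data with arrays drawn independently, without a correlation of sisters or a difference between embryo sets. That test cannot speak to sisters counted as samples. Embryos 9 to 14 and 15 to 18 were described without a test. Summaries and figures were made in Python.

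The members and gene lists were chosen with earlier results of these data known. Named were members known for ribosomal RNA processing, up to 5 per class and direction by adjusted p in each comparison of media (or the 3 of each class with the smallest p where none passed), up to 5 per class and direction without overlap between the embryo sets, and from each other list up to 4 genes with the smallest adjusted p. By symbol 66 of 67 members matched the RefSeq table of GRCm38.p6, and 62 of these overlapped its coordinates. No snoRNA sequence was used here. Alternatives were other scalings and filters, blocks by embryo, subsets of embryos, array weights and the methods' t-test.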

Additional observations from a re-analysis of the deposited data

Results flagged for a closer look

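Named members were checked in GM501 and in SAGE 1-step (10 half-embryos each, 50 groups in all) for a single value whose gap to the nearest other was above Dixon's critical share of the group's range, and 8 groups had one (7 of 48 with Snord116l1 and Snord116l2 counted once), where chance gives about 1 in 20 groups. Snora2b read 8.17 in half-embryo 17a in GM501, next to 6.19, and 7.18 in half-embryo 15b in SAGE 1-step, next to 5.41. Snora62 read 7.73 in half-embryo 12b in SAGE 1-step, next to 6.34. Snora7a was lowest in half-embryo 16b in SAGE 1-step, at 5.86, next to 8.56. Snord116l1 and Snord116l2, which share their values, read 6.90 in half-embryo 14a in GM501, next to 5.15. Snord118 read 7.08 in half-embryo 12a in GM501, next to 5.55. Snord53 read 9.18 in half-embryo 18a in GM501, next to 6.94. None of these genes passed in a comparison of media over all arrays. Snora2b passed in SAGE 1-step with embryos 9 to 14 alone, which do not include half-embryo 15b, and Snora62, Snord116l1, Snord116l2 and Snord53 are among the genes without overlap between the embryo sets.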

How the results depend on the processing

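Between GM501 and KSOM(aa), 8 members passed, beside 7.66% of all clusters. With arrays scaled to Actb, Gapdh and Hprt the count was 26, beside 79.1% of all clusters (median of all clusters 0.61 in place of 0.09). It was 5 with clusters without a symbol included and 5 with a random replicate block by embryo, beside 4.85% and 5.21%. It was 1 with KSOM(aa) sisters averaged and 3 with KSOM(aa) embryos 1 to 5, beside 1.47% and 2.08%. With embryos 9 to 14 it was 17 and with embryos 15 to 18 it was 0, beside 52% and 0.69%. Between SAGE 1-step and KSOM(aa), 6 passed, beside 9.55% of all clusters. The count was 27 with scaling to Actb, Gapdh and Hprt (median 0.69 in place of 0.10), beside 84.3%. It was 2 with KSOM(aa) sisters averaged and 12 with array weights, beside 1.85% and 32.5%. With embryos 9 to 14 it was 17 and with embryos 15 to 18 it was 2, beside 46.5% and 0.732%. Scaling to Actb, Gapdh and Hprt also changed the split, to 22 higher and 4 lower in GM501 and to 25 higher and 2 lower in SAGE 1-step. Without half-embryo 16b, 11 and 9 passed, beside 8.33% and 10.3% of all clusters. Snora31, Snord55 and Snord87 were added in GM501 and Snord104, Snord23 and Snord87 in SAGE 1-step (limma adjusted p from 0.0142 to 0.0462). Members without overlap between the embryo sets were 11 (6 higher and 5 lower), and 6 with GM501 arrays only, beside 28% and 33.2% of all clusters. The split was 2 and 12 with arrays centred on their median, 3 and 9 with quantile normalization and 12 and 3 with scaling to Actb, Gapdh and Hprt (medians of all clusters -0.04, 0.01 and 0.91 in place of 0.30), and leaving out each of embryos 15 to 18 gave 11 to 14, beside 52.2% of all clusters without embryo 16 in place of 28%. Of 182 values of single called members under these alternatives 133 stayed past the threshold, 48 did not, and 1 turned, Snord104 in GM501 at -0.02 with embryos 15 to 18. The counts of 0 between GM501 and SAGE 1-step and for the sister differences were 0 under every alternative run, the fixed replicate block of sister pairs included. The causes were not tested.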

Other observations

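A further 49 transcript clusters carry a snoRNA symbol together with other symbols and were not counted as members. With limma, 8 of these were higher and 2 lower in GM501 than in KSOM(aa) at an adjusted p under 0.05, beside 4.06% and 3.6% of all clusters, and 9 were higher and 2 lower in SAGE 1-step, beside 5.13% and 4.42%. Between the embryo sets 23 were higher and 6 lower in embryos 9 to 14 without overlap, beside 22.1% and 5.84%, and with each array centred on its median 5 were higher and 8 lower, beside 5.08% and 10.6%. These clusters hold host exons as well as snoRNAs, and their signals were not divided between them.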
